A study of Mus musculus with 8 samples.

Results

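The genes described here are the CXC chemokines Cxcl1, Cxcl2, Cxcl3, Cxcl5, Ppbp and Pf4 and the chemokine receptor Cxcr2, measured in mouse ankle joint on Affymetrix arrays. Members were chosen by name: a probe set belonged to the group where the platform annotation assigned it to 1 gene alone and that gene was on the list. This gave 9 probe sets of 7 genes, of 45101 probe sets and 18193 named genes on the array. Cxcl1 had 3 probe sets and each other gene had 1.

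The study asked what loss of sphingosine kinase 1 (Sphk1) activity does to inflammation driven by human TNF. All 8 arrays were of ankle joint taken at 5 months of age, and all animals were reared alike. The wild-type group held 2 arrays from mice with normal TNF and normal Sphk1 activity. The hTNF group held 3 arrays from mice that carry a human TNF transgene and have normal Sphk1 activity. The third group held 3 arrays from mice that carry the same transgene and are labelled as functionally null for Sphk1. No group held Sphk1 null mice without the transgene. The labels used here do not give strain, sex, the promoter of the transgene or the null allele. They do not say whether replicate mice differ in litter or RNA preparation, and all p-values here describe the spread among the 8 arrays alone, part of which can be technical.

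Values are deposited log2 expression values, and the array medians lay between 6.84 and 6.89 log2. Within groups, arrays correlated at 0.962 to 0.985 over the 24115 probe sets tested. Of the probe sets on the array, 24115 were tested, because at least 2 of their 8 values lay above 6.87, the table median. They represented 12362 genes by the brightest probe set of each gene, and the median log2 difference of these genes between hTNF and wild type was -0.02. Sphk1 itself (1451596_a_at) was 7.25 and 7.16 on the wild-type arrays, 8.63, 8.65 and 8.28 on the hTNF arrays and 9.94 to 10.22 on the 3 arrays labelled Sphk1 null. On this probe set the level was thus highest under the null label, by 1.53 ± 0.13 log2 (SE) over hTNF (limma, adjusted p = 0.0164). The other Sphk1 probe set (1420566_at) lay below 6.87 on all 8 arrays. Its mean was 6.59 in hTNF and 6.47 under the null label (-0.11 ± 0.14 log2 when all probe sets were fitted). It is not known whether the null allele removes the sequence that these probes bind. The values therefore do not check the label, and the group is called "labelled Sphk1 null" throughout. Wild-type replicate 2, hTNF replicate 1 and Sphk1 null replicate 1 carried signal of both Xist (11.19 to 13.09) and the Y-linked gene Eif2s3y (6.60 to 9.14). These are called the 3 arrays with mixed sex signal. The labelled tissue carried its defining markers: muscle genes averaged 12.57 to 14.11 across arrays, fibroblast genes 12.05 to 12.70 and cartilage and bone genes 10.07 to 10.99.

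CXC chemokines are small secreted proteins that bind to heparan sulfate on vessel walls and direct the migration of leukocytes. Those with a glutamate-leucine-arginine motif before the first cysteine, such as Cxcl1, Cxcl2, Cxcl3 and Cxcl5, attract neutrophils through Cxcr2, a receptor coupled to inhibitory G proteins. In joints they are produced by synovial fibroblasts, macrophages and other cells when TNF or interleukin 1 activates NF-kB. Ppbp and Pf4 are chemokines stored in the alpha granules of platelets. Cleavage of the Ppbp product yields a ligand of Cxcr2, whereas Pf4 lacks the motif and is no classical neutrophil attractant.

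The 6 chemokine genes neighbour one another on chromosome 5. In the RefSeq gene table of GRCm38.p6 the order was Cxcl5, Ppbp, Pf4, Cxcl3, Cxcl15, Cxcl1, Cxcl2, with no other gene between them. RefSeq promoter windows were given for 6 of the 7 members, not for Cxcl5. The 110 bases shown for Cxcl1, Cxcl2 and Cxcl3 lie just upstream of the annotated start on the plus strand of GRCm38.p6. They are shown because these 3 genes had higher values in transgenic ankles and share the runs in capitals, the only runs of 8 or more bases common to their 250 bases upstream. The first run of capitals is GGGAATTTCCC, a form of the NF-kB motif, and the second is ATAAAAGG, which resembles a TATA box.
Cxcl1 chr5:90891135-90891244: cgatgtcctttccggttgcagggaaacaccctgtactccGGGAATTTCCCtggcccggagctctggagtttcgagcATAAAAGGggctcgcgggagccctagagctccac
Cxcl2 chr5:90903789-90903898: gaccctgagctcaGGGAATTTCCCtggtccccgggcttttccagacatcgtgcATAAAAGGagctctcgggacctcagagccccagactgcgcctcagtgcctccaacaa
Cxcl3 chr5:90785991-90786100: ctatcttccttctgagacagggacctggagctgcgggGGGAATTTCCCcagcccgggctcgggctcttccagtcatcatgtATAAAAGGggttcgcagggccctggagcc
The GGGAATTTCCC run began 71 bases upstream of the start in Cxcl1, 97 in Cxcl2 and 73 in Cxcl3, and the ATAAAAGG run 34, 57 and 29 bases upstream. Both strands of the 250 bases upstream of each start were searched, and the letters GGGAATTTCCC occurred in 14 of 32851 windows (0.0426%). The broader NF-kB consensus, searched by name, occurred in 3.9% of windows, and its 2 overlapping matches in each of these 3 genes cover the same site on opposite strands. Both runs were read from these sequences, not chosen beforehand. ATAAAAGG occurred in 1.54% of windows. Its letters also lay on the minus strand of the Ppbp window. Neither GGGAATTTCCC nor the consensus matched in the Ppbp, Pf4 and Cxcr2 windows. The TATA motif TATAAA, held by 12.4% of windows, matched in Cxcl3, overlapping ATAAAAGG there, and at 2 places in Ppbp. The GATA motif AGATAA, held by 9.99% of windows, matched in none of the 6. Outside the members, 11 genes held GGGAATTTCCC, of which 3 were tested: none rose between wild type and hTNF (limma; none was higher at an unadjusted p under 0.05 either), and Hpn (-0.89 ± 0.23 log2) and Il16 (-0.40 ± 0.13) fell. A match is a description of letters, and binding was not measured.

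In ankles with the human TNF transgene, Cxcl1, Cxcl2, Cxcl3, Cxcl5 and Pf4 rose, Ppbp did not pass the test and Cxcr2 was too dim to be tested. Differences for the Cxcr2 ligands reached 5.94 log2 (Cxcl3), and Pf4 rose by 1.84 log2. By the brightest probe set of each gene, 5 of 6 tested members rose and none fell at an adjusted p under 0.05 (limma). Of all 12362 tested genes, 16.5% rose and 36.1% changed in either direction. Cxcl2, Cxcl3 and Cxcl5 passed the signal filter through transgenic arrays alone, as both wild-type arrays lay below 6.87. The rises of these genes in counts against wild type are therefore not independent of the filter. The 1419209_at probe set of Cxcl1, which does not represent Cxcl1 in these counts, also passed through transgenic arrays alone. The shares of all genes were not restricted to genes that passed in this way. The 5 members were also higher on every hTNF array than on both wild-type arrays, as were 28.7% of all tested genes. The median difference of the 6 tested members was 3.08 log2. In bulk tissue, fewer or more cells that make a transcript and a change in its level per cell cannot be told apart.

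**Figure D1:**
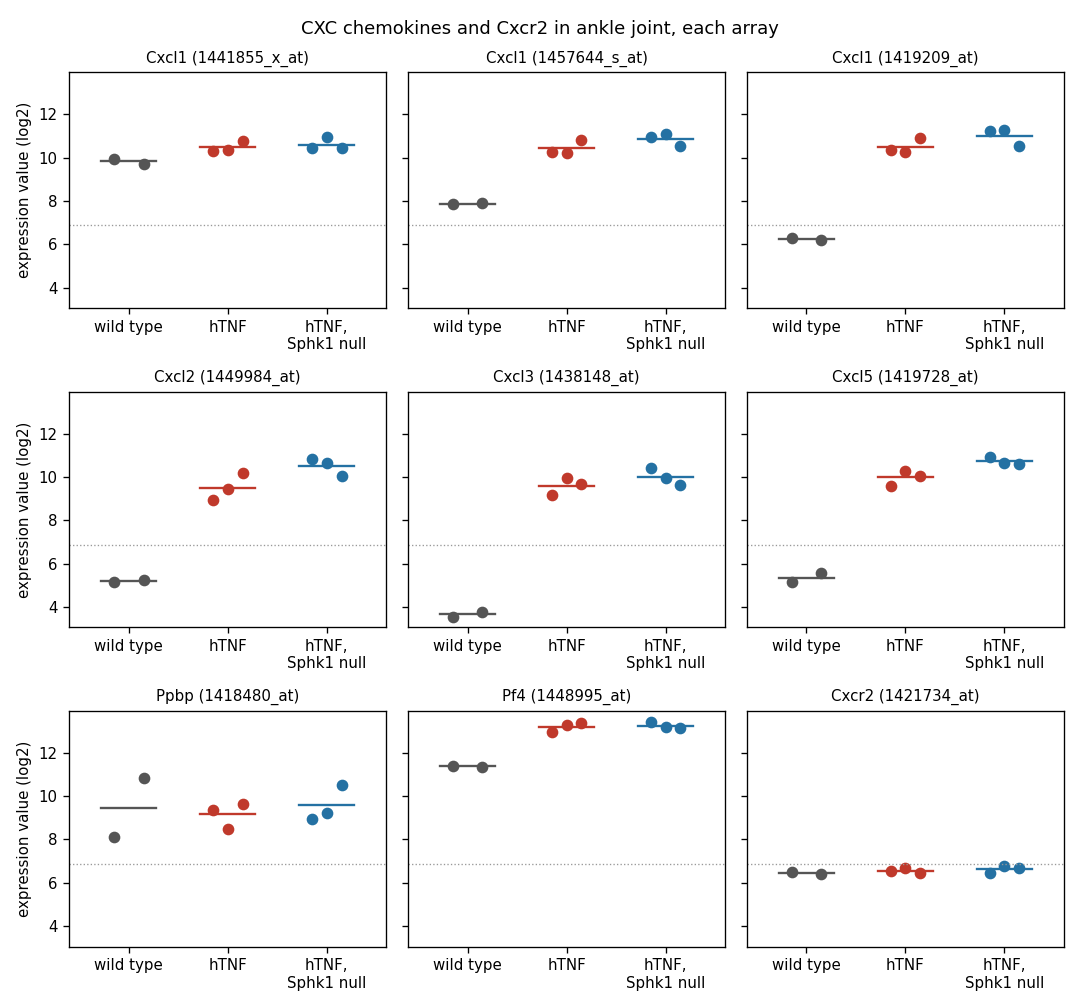
Deposited log2 expression value of each member probe set (vertical axis) on each of the 8 arrays, by group; points are arrays in order of replicate number, bars are group means and the dotted line is the table median of 6.87. The transgenic arrays sit above both wild-type arrays in every panel of Cxcl1, Cxcl2, Cxcl3, Cxcl5 and Pf4, while the groups overlap for Ppbp and Cxcr2.

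Cxcl3 encodes a ligand of Cxcr2 that is induced in macrophages and fibroblasts. Its probe set (1438148_at) was at 3.55 and 3.76 log2 in wild type, at 9.17, 9.93 and 9.68 in hTNF and at 10.40, 9.93 and 9.64 in the arrays labelled Sphk1 null. Both wild-type arrays were far below the table median, and every transgenic array was above it, so the wild-type group did not overlap either transgenic group. Cxcl3 rose by 5.94 ± 0.26 log2 (SE, 95% interval 5.36 to 6.51), or 61.3-fold, between wild type and hTNF (limma, adjusted p = 4.15e-06). It had the largest difference among the members. Because the wild-type values were dim, the fold rests on how the authors' summary treats dim probe sets. With an offset of 32 added on the linear scale the difference was 4.17 log2, still the largest of the members.

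Cxcl5, a ligand of Cxcr2 made mainly by stromal and epithelial cells, gave 5.15 and 5.55 in wild type (1419728_at). Its values were 9.58, 10.28 and 10.06 in hTNF and 10.93, 10.64 and 10.61 in the arrays labelled Sphk1 null. All transgenic arrays were above both wild-type arrays. Cxcl5 rose by 4.62 ± 0.21 log2, or 24.6-fold, in hTNF (limma, adjusted p = 4.15e-06). With the offset of 32 this was 3.83 log2.

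Cxcl2, a ligand of Cxcr2 released by activated macrophages and mast cells, was at 5.14 and 5.22 in wild type (1449984_at). It was at 8.91, 9.43 and 10.16 in hTNF and at 10.82, 10.65 and 10.03 in the arrays labelled Sphk1 null. The hTNF arrays were more spread than for the other ligands, over 8.91 to 10.16, yet none came near the wild-type values. Cxcl2 rose by 4.32 ± 0.33 log2, or 20.0-fold, in hTNF (limma, adjusted p = 3.94e-05), and by 3.47 log2 with the offset.

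Cxcl1, the main neutrophil attractant made by stromal cells in the mouse, had 3 probe sets that differed in the size of its rise. On 1419209_at the values were 6.27 and 6.19 in wild type, 10.35, 10.25 and 10.92 in hTNF and 11.22, 11.26 and 10.54 in the arrays labelled Sphk1 null. On 1457644_s_at they were 7.85 and 7.90, then 10.24, 10.23 and 10.83, then 10.94, 11.11 and 10.53. On 1441855_x_at they were 9.94 and 9.71, then 10.30, 10.36 and 10.78, then 10.44, 10.95 and 10.43. On all 3, each transgenic array was above both wild-type arrays.

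The rise between wild type and hTNF was 4.28 ± 0.25 log2 (19.4-fold, limma adjusted p = 1.18e-05) on 1419209_at. Both wild-type values of this probe set were below 6.87, so it passed the signal filter through transgenic arrays alone. With the offset of 32 its rise was 3.8 log2. On 1457644_s_at the rise was 2.56 ± 0.21 log2 (5.89-fold, limma adjusted p = 5.56e-05). On 1441855_x_at, which as the brightest of the 3 represents Cxcl1 in counts of genes, it was 0.66 ± 0.20 log2 (1.57-fold, limma adjusted p = 0.0288). In Affymetrix names, the suffixes s and x mark probe sets whose probes can match more than 1 transcript. Cxcl1, Cxcl2 and Cxcl3 are close paralogs, and how much of each signal comes from a neighbour was not tested. The call on 1441855_x_at was lost without either wild-type array (0.77 log2 with an adjusted p of 0.0687 without replicate 1, and 0.54 with 0.165 without replicate 2). It was also lost without hTNF replicate 3 (0.51, adjusted p = 0.0898 by limma) and without the 3 arrays with mixed sex signal (0.63, adjusted p = 0.118 by limma).

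Pf4, platelet factor 4, was bright on every array (1448995_at). It gave 11.39 and 11.34 in wild type, 12.95, 13.28 and 13.38 in hTNF and 13.44, 13.20 and 13.12 in the arrays labelled Sphk1 null. All 6 transgenic arrays were higher than both wild-type arrays, within a narrow band. Pf4 rose by 1.84 ± 0.13 log2 (95% interval 1.53 to 2.14), or 3.58-fold, in hTNF (limma, adjusted p = 3.04e-05).

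Ppbp, pro-platelet basic protein, behaved differently from Pf4 although both are platelet granule chemokines and neighbouring genes (1418480_at). It was at 8.09 and 10.84 in wild type, at 9.37, 8.50 and 9.63 in hTNF and at 8.96, 9.24 and 10.50 in the arrays labelled Sphk1 null. The wild-type arrays were the lowest and the highest of all 8, so both transgenic groups lay inside their range. The difference between hTNF and wild type was -0.30 ± 0.73 log2, with a 95% interval of -1.95 to 1.35 (limma, adjusted p = 0.806). Its sign depended on the wild-type array used: it was 1.08 log2 without wild-type replicate 2 and -1.67 without replicate 1, neither of them called. The interval holds differences of either sign, so the test shows neither a change nor its absence.

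Cxcr2, the receptor of the neutrophil-attracting members, was below the table median of 6.87 on all 8 arrays (1421734_at). It gave 6.50 and 6.39 in wild type, 6.54, 6.68 and 6.46 in hTNF and 6.47, 6.77 and 6.70 in the arrays labelled Sphk1 null. The groups overlapped, and the probe set was left out of the main test for its dim signal. When all probe sets were fitted, hTNF minus wild type was 0.12 ± 0.14 log2, with a 95% interval of -0.20 to 0.43 (limma, adjusted p = 0.724). This interval does not show that the groups are alike, and signal this dim can hide a larger difference.

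**Figure D2:**
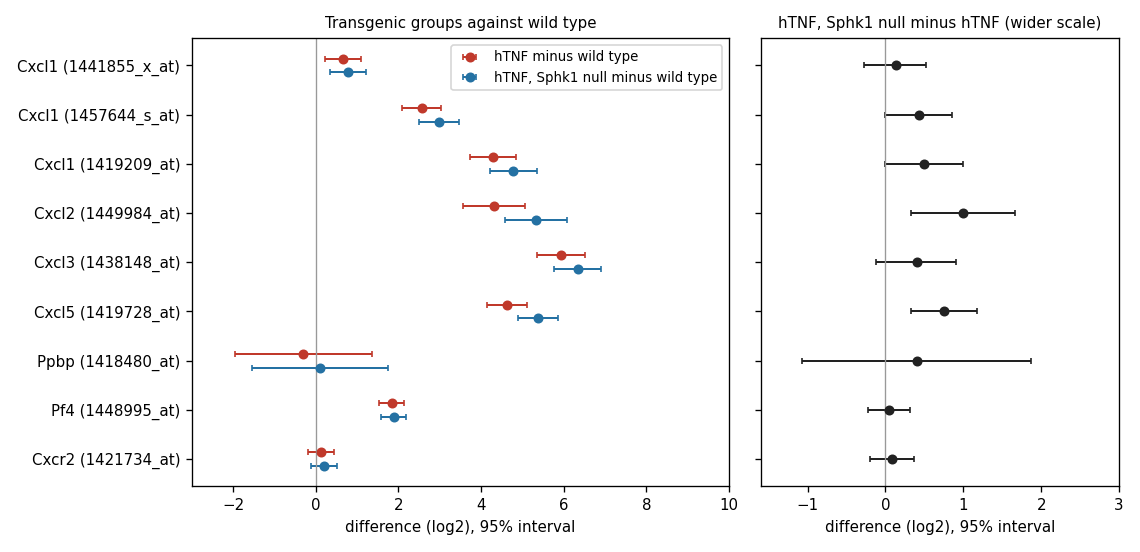
Log2 difference of each member probe set with its 95% interval (horizontal axis): both transgenic groups against wild type on the left, and arrays labelled Sphk1 null against hTNF on the right, on a wider scale. Cxcl3 lies farthest to the right at 5.94 and 6.34 log2, the 3 Cxcl1 probe sets spread from 0.66 to 4.28 in hTNF, and Ppbp has the widest intervals.

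The arrays labelled Sphk1 null were compared with hTNF to ask whether Sphk1 alters the chemokine response to the transgene. No member was called: 0 of 6 tested genes passed at an adjusted p under 0.05 (limma), against 0.0162% of all tested genes. At an unadjusted p under 0.05, 2 of the 6 were higher, Cxcl2 and Cxcl5, as were 2.39% of all tested genes. The mean was higher in the arrays labelled Sphk1 null for all 6, as for 44.5% of all tested genes, with a median of 0.40 log2. The sign of Ppbp, Pf4, Cxcl3 and the 1441855_x_at probe set of Cxcl1 turned when some arrays were left out.

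Cxcl5 was the only member probe set on which these groups did not overlap: the lowest array labelled Sphk1 null was at 10.61 and the highest hTNF array at 10.28. Of all tested genes, 5.1% were higher without overlap. The difference was 0.75 ± 0.19 log2 (95% interval 0.33 to 1.18; limma unadjusted p = 0.00307, adjusted p = 0.54). For Cxcl2 the difference was 1.00 ± 0.30 log2 (95% interval 0.33 to 1.67; limma unadjusted p = 0.00833, adjusted p = 0.592). Here hTNF replicate 3 at 10.16 exceeded Sphk1 null replicate 3 at 10.03, so the groups overlapped. The Cxcl1 probe set 1419209_at differed by 0.50 ± 0.22 log2 (limma adjusted p = 0.657) and Cxcl3 by 0.40 ± 0.23 (limma adjusted p = 0.705). Ppbp differed by 0.40 ± 0.65 log2, and Pf4 by 0.05 ± 0.12 with a 95% interval of -0.22 to 0.32. The p-values that missed the threshold do not show that the groups are alike, since the interval of Cxcl2 reaches 1.67 log2.

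Against wild type, the arrays labelled Sphk1 null had the same 5 members called, all higher, of 6 tested. Of all tested genes, 19.1% rose and 42.9% changed in either direction, and 28.3% were higher without overlap, as these 5 were. This comparison shares its wild-type arrays with the first, so the values are given side by side only. Cxcl3 rose by 6.34 ± 0.26 log2 (5.94 in hTNF), Cxcl5 by 5.38 ± 0.21 (4.62 in hTNF) and Cxcl2 by 5.32 ± 0.33 (4.32 in hTNF). The Cxcl1 probe sets rose by 4.78, 2.98 and 0.78 log2 (4.28, 2.56 and 0.66 in hTNF), and Pf4 by 1.89 (1.84 in hTNF). The smallest of these, 0.78 on 1441855_x_at, was not called without wild-type replicate 2 (0.67, limma adjusted p = 0.0827) or without the 3 arrays with mixed sex signal (0.75, limma adjusted p = 0.0656). Ppbp was at 0.10 ± 0.73 log2 and Cxcr2, in the fit of all probe sets, at 0.20 ± 0.14 (limma adjusted p = 0.406).

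The genes with the most similar course were found by Pearson correlation over the 8 arrays, with the value over the 6 transgenic arrays beside it. For a member that rose, the 8 arrays form a wild-type and a transgenic cluster, so a high correlation over 8 arrays mainly restates the rise. Cxcl3 ran closest to Ctsz, a lysosomal protease gene (0.999, and 0.969 over transgenic arrays), Ptpre and Ctsa. Cxcl5 ran closest to Sirpa, a myeloid inhibitory receptor (0.998 and 0.945), Pik3r5 and Slc39a14. Cxcl2 ran closest to Sema4a (0.998 and 0.974), Prkcd and Antxr2. The 1419209_at probe set of Cxcl1 ran closest to Myof (0.999 and 0.98), Lpcat3 and Txn1, and the 1457644_s_at probe set to Myof, Mgat2 and Cxcl2. The third Cxcl1 probe set, 1441855_x_at, had another set of genes: Ncoa3 (0.977 and 0.941), Fam120a and Ogg1. Pf4 ran closest to Emp3 (0.998 and 0.979), Tbxas1, the thromboxane synthase gene of platelets and macrophages, and Akr1b8.

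Ppbp ran closest to Elane (0.987 over 8 arrays and 0.969 over the transgenic ones), Ctsg (0.975 and 0.95) and Prtn3 (0.972 and 0.94), which encode the granule proteases that neutrophil precursors make in bone marrow. Elane was at 7.48 and 9.99 in wild type, at 8.53, 7.98 and 8.80 in hTNF and at 7.95, 8.57 and 9.74 in the arrays labelled Sphk1 null. As for Ppbp, wild-type replicate 1 was the lowest array, wild-type replicate 2 the highest and Sphk1 null replicate 3 the next highest. The mean of the 17 tested neutrophil markers, which include these 3 proteases, was 7.53 and 10.09 in wild type, 9.82, 9.31 and 10.03 in hTNF and 9.53, 9.82 and 10.78 in the arrays labelled Sphk1 null. With this mean as a covariate, the fitted Ppbp difference between hTNF and wild type was -1.34 ± 0.15 log2 (limma, adjusted p = 0.000666). That mean includes Fpr2, Mcemp1, Trem1 and Csf3r, which rose in hTNF, and so carries part of the group difference itself. Without these 4 genes, an alternative added after seeing the data, the fitted value was -0.82 ± 0.13 (limma, adjusted p = 0.00233). Elane (-0.30 ± 0.69), Ctsg (-0.42 ± 0.77) and Prtn3 (-0.35 ± 0.75) differed between hTNF and wild type by about as much as Ppbp did with no covariate (-0.30). The fitted values therefore depend on the genes that make up the covariate and do not show a fall of Ppbp. The Pf4 difference was 1.89 and 1.87 log2 in the same fits.

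**Figure D3:**
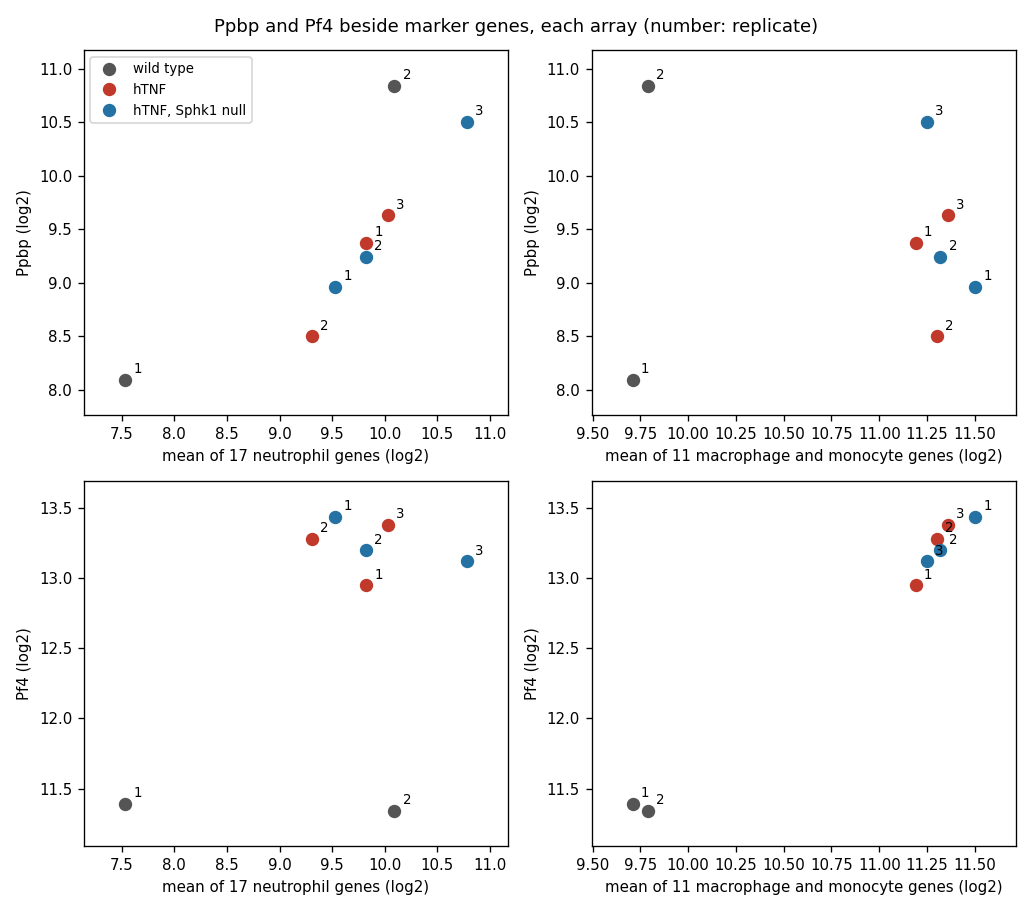
Log2 value of Ppbp (top) and Pf4 (bottom) on each array against the mean log2 value of 17 neutrophil genes (left) and of 11 macrophage and monocyte genes (right); numbers are replicates and colours are groups. Both Ppbp and the neutrophil mean are lowest on wild-type replicate 1 (8.09 and 7.53). Ppbp is highest on wild-type replicate 2 (10.84), the neutrophil mean on Sphk1 null replicate 3 (10.78). Pf4 separates wild type (11.34 to 11.39) from transgenic arrays (12.95 to 13.44), as do the macrophage mean and the fibroblast mean (not shown).

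Markers of megakaryocytes and platelets were measured beside Pf4 and Ppbp. The mean of the 12 tested megakaryocyte and platelet genes was 7.84 and 8.68 in wild type, 8.44, 8.28 and 8.49 in hTNF and 8.25, 8.42 and 8.72 in the arrays labelled Sphk1 null, so that the groups overlapped. Only wild-type replicate 1 lay below all transgenic arrays. As for Ppbp, this mean was higher on wild-type replicate 2 and Sphk1 null replicate 3 than on all other arrays. In hTNF 2 of these 12 genes rose, Plek (1.62 ± 0.16 log2) and Rap1b (0.53 ± 0.08), both also used by other blood cells. Vwf fell by 0.56 ± 0.18 log2 (limma adjusted p = 0.0419). The median of the list was 0.05 log2, and of all tested genes 16.5% rose and 19.6% fell. The other 9 were not called and ran in both directions, from Clec1b at -0.50 ± 0.51 log2 to Itgb3 at 0.66 ± 0.24 (limma, adjusted p = 0.0625), which was higher on every hTNF array than on both wild-type arrays. Among the platelet receptor genes, Gp5 was at -0.38 ± 0.29, Itga2b at -0.01 ± 0.20, Gp1bb at 0.12 ± 0.20 and Treml1 at 0.36 ± 0.19. The part of platelets in the Pf4 values was not tested. Without wild-type replicate 2 the list had 5 rises and no fall. Vwf was also not called when any 1 of the 3 hTNF arrays or Sphk1 null replicate 3 was left out (limma adjusted p = 0.0662 to 0.106), nor without the 3 arrays with mixed sex signal (-0.31, limma adjusted p = 0.186). The defining genes Gp6 and Gata1 never passed the signal filter.

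Macrophage and monocyte markers rose in hTNF together with Pf4 and the Cxcr2 ligands. Of 11 tested, 9 rose and none fell, against 16.5% and 19.6% of all tested genes, with a median of 1.53 log2. Itgam, the integrin chain of myeloid cells, rose by 3.02 ± 0.20, Cd14 by 2.68 ± 0.16, Ccr2 by 2.37 ± 0.19 and Adgre1, a marker of mature macrophages, by 2.12 ± 0.14. The mean of the list was 9.71 and 9.79 in wild type and 11.19 to 11.50 on the transgenic arrays, with no overlap. The fibroblast mean also separated these groups, at 12.05 and 12.06 in wild type and 12.60 to 12.70 on the transgenic arrays. The part of either list in the chemokine values was not tested.

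Neutrophil markers, of the cells that these chemokines attract, were mostly not called. Of 17 tested, 4 rose in hTNF and none fell, against 16.5% and 19.6% of all tested genes, with a median of 0.81 log2. Fpr2, a formyl peptide receptor, rose by 3.43 ± 0.48 log2, Mcemp1 by 2.09 ± 0.25, Trem1 by 1.50 ± 0.17 and Csf3r, the receptor of granulocyte colony-stimulating factor, by 0.96 ± 0.17. These 4 are also expressed by monocytes or macrophages. The granule genes S100a8 (0.79 ± 0.68 log2), S100a9 (0.86 ± 0.74) and Mpo (0.03 ± 1.01) were not called. The wild-type arrays differed most in the list mean, and without wild-type replicate 2 the count was 12 of 17 instead of 4. No probe set was annotated to Ly6g, Retnlg or Fpr1 alone, so these genes were not analysed here.

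Other tissue markers also differed between the groups, while 16.5% of all tested genes rose and 19.6% fell in hTNF. Of 10 fibroblast genes 6 rose, among them Postn (2.16 ± 0.13 log2) and Pdpn (1.78 ± 0.09), and Clic5, of the synovial lining, fell by 1.96 ± 0.17. Of 8 muscle genes 7 fell, and of 7 cartilage and bone genes 3 fell (Acan, Col10a1 and Col9a1), or 1 without wild-type replicate 1. All 8 endothelial genes fell, with a median of -0.56 log2. In the arrays labelled Sphk1 null, 3 of them fell against wild type, as did 23.8% of all tested genes. The endothelial count of 8 dropped to 2 without wild-type replicate 2, hTNF replicate 1 or the 3 arrays with mixed sex signal, to 4 without hTNF replicate 3 or Sphk1 null replicate 3, and to 5 without wild-type replicate 1. None of 12 skin keratinocyte genes was called at an adjusted p under 0.05 (limma), nor at an unadjusted p under 0.05. Their mean ran from 6.12 to 11.32 over the arrays, in no order by group. With this skin mean as a covariate, the same number of members, 5 of 6, was called. None of the 3 tested Y-linked genes was called (limma), at either threshold.

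**Figure D4:**
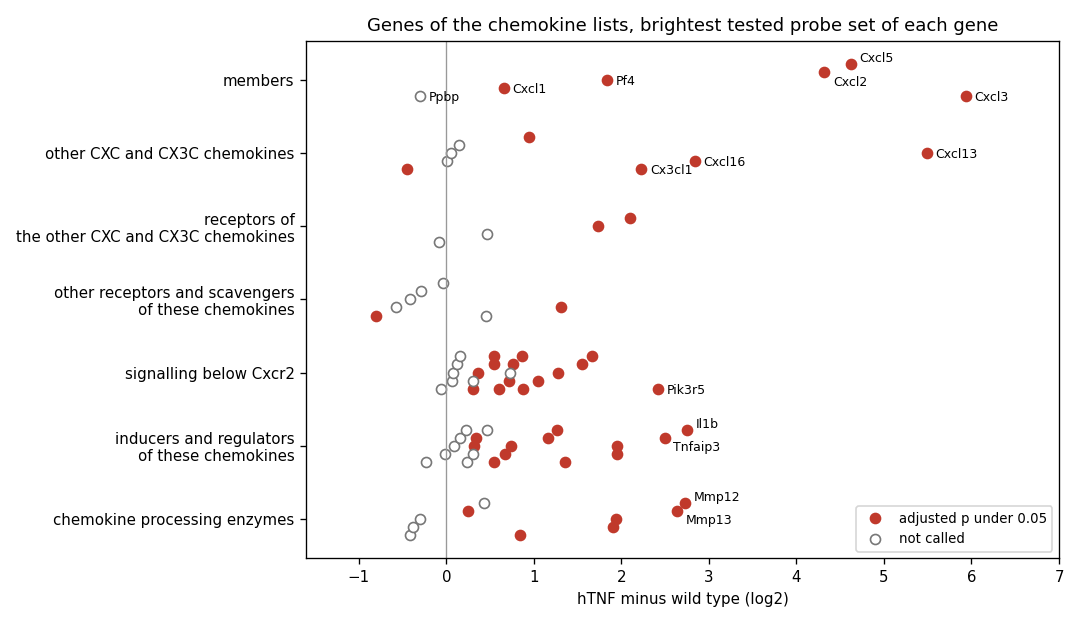
Log2 difference between hTNF and wild type (horizontal axis) of each tested gene of the chemokine lists, by its brightest probe set; filled points passed an adjusted p under 0.05 and open points did not. Among the members 5 of 6 points are filled, and no gene of the receptor, signalling, regulator or enzyme lists reaches the 4.32 log2 of Cxcl2.

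Of the other CXC and CX3C chemokines, 4 of 8 tested rose in hTNF and 1 fell, against 16.5% and 19.6% of all tested genes. The list median was 0.54 log2. Cxcl13, which attracts B cells, had 6.32 and 6.80 in wild type, 11.24, 12.48 and 12.43 in hTNF and 12.74, 12.63 and 12.06 in the arrays labelled Sphk1 null. It was low only on the wild-type arrays, and its rise of 5.49 ± 0.36 log2 (limma, adjusted p = 1.86e-05) was of the size of the neutrophil attractants. Both wild-type values lay below 6.87, so Cxcl13 passed the signal filter through transgenic arrays alone. Its rise in the count is therefore not independent of the filter. Cxcl16, a membrane-bound ligand and scavenger of oxidised lipoprotein, rose by 2.84 ± 0.21 and Cx3cl1, fractalkine, by 2.23 ± 0.17. Cxcl10, an interferon-induced attractant of T cells, rose by 0.94 ± 0.27 (limma, adjusted p = 0.0264), a call lost when either wild-type array, hTNF replicate 2 or hTNF replicate 3 was left out. Cxcl14 fell by 0.45 ± 0.10 log2, a call lost without wild-type replicate 1. Cxcl12, which retains cells in bone marrow, was at 0.05 ± 0.09 log2 and was not called. Cxcl11 and Cxcl15, the latter within the chromosome 5 cluster, never passed the signal filter. Of the receptors of these chemokines, 2 of 4 tested rose, Cx3cr1 by 2.10 ± 0.28 and Cxcr4 by 1.73 ± 0.34 log2.

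Decoy receptors, proteoglycans and related chemokine-binding proteins form a list of their own. Of 7 tested, 1 rose and 1 fell in hTNF, against 16.5% and 19.6% of all tested genes, with a median of -0.29 log2. Sdc1, a heparan sulfate proteoglycan that binds Cxcl1, rose by 1.31 ± 0.13 log2. Ackr2, a decoy receptor for inflammatory CC chemokines, fell by 0.80 ± 0.17 (limma, adjusted p = 0.00591), a call lost without wild-type replicate 1 (-0.57, limma adjusted p = 0.0693). Without hTNF replicate 1 the list had 2 rises and 2 falls. Ackr1, which carries chemokines across venules, was at -0.04 ± 0.14 log2 and was not called.

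Signalling genes below Cxcr2 rose in 14 of 21 cases in hTNF and none fell, against 16.5% and 19.6% of all tested genes. The list median was 0.60 log2. Pik3r5, a regulatory subunit of the phosphoinositide kinase that G protein-coupled receptors activate in leukocytes, rose by 2.42 ± 0.18 log2. Arrb2, which desensitises the receptor, rose by 1.66 ± 0.21, the catalytic subunit Pik3cg by 1.55 ± 0.20 and the actin regulator Vasp by 1.28 ± 0.17. These genes serve many leukocyte receptors beside Cxcr2, and the macrophage markers rose on the same arrays. What part cell content or any receptor has in these rises was not tested.

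Of 20 tested inducers and regulators of the neutrophil attractants, 12 rose in hTNF and none fell, against 16.5% and 19.6% of all tested genes. The list median was 0.51 log2. Il1b, the inflammatory cytokine, was at 8.10 and 8.30 in wild type, at 10.47, 10.98 and 11.40 in hTNF and at 12.20, 12.11 and 11.65 in the arrays labelled Sphk1 null. The groups followed one another without overlap. Il1b rose by 2.75 ± 0.25 log2 in hTNF (limma, adjusted p = 8.87e-05), and the arrays labelled Sphk1 null were 1.04 ± 0.23 log2 above hTNF without being called (limma, adjusted p = 0.438). Tnfaip3, an NF-kB feedback inhibitor, rose by 2.50 ± 0.20, the NF-kB subunit Relb by 1.95 ± 0.20 and the TNF receptor gene Tnfrsf1b by 1.95 ± 0.19. Il17a (-0.01 ± 0.13 log2) and Csf3 (0.09 ± 0.16), which drive neutrophil responses in other settings, were not called. Il17a lay at 6.76 to 7.07 and Csf3 at 6.73 to 7.21, close to the table median, and signal this dim can hide a difference. Il6 and Csf2 never passed the signal filter. Il6 was dim, at 4.10 and 4.12 in wild type and 4.76, 5.14 and 5.19 in hTNF. It was at 7.43, 6.44 and 6.19 in the arrays labelled Sphk1 null. The 3 groups did not overlap. Of all tested genes, 28.7% were higher without overlap in hTNF than in wild type. In the arrays labelled Sphk1 null against hTNF this share was 5.1%. Il6 was left out of the main test for its dim signal, and no p-value is given for it here. No probe set was annotated to Nfkb1 alone, so Nfkb1 was not analysed here.

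Of 10 tested enzymes that trim or cleave these chemokines, 6 rose in hTNF and none fell, against 16.5% and 19.6% of all tested genes. The list median was 0.63 log2. The collagenase gene Mmp13 rose by 2.64 ± 0.23 log2 and the lysosomal protease gene Ctss by 1.91 ± 0.13. Mmp12, a macrophage elastase that inactivates neutrophil-attracting chemokines, rose by 2.73 ± 0.72 (limma, adjusted p = 0.017), and Mmp9, a gelatinase of neutrophils and osteoclasts, by 1.94 ± 0.53 (limma, adjusted p = 0.0198). The calls of Mmp12 and Mmp9 were lost without wild-type replicate 1, when the list had 3 rises and 2 falls, and that of Mmp9 also without hTNF replicate 2. Without wild-type replicate 1 the differences were 2.19 log2 for Mmp12 and 0.79 for Mmp9, and Mmp9 was at 3.10 without wild-type replicate 2.

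Between the arrays labelled Sphk1 null and hTNF, no gene of any of the 15 lists was called (limma, 154 distinct genes). At an unadjusted p under 0.05, 26 of the 154 passed, against 6.25% of all tested genes in either direction. In the arrays labelled Sphk1 null, 18 of the 154 were higher, against 2.39% of all tested genes. The muscle list had 5 lower and 1 higher. Against wild type, the arrays labelled Sphk1 null had 15 of 21 signalling genes higher, 15 of 20 inducers and regulators and 4 of 17 neutrophil markers, beside the 14, 12 and 4 of the hTNF arrays. The shares of all tested genes that rose were 19.1% and 16.5%.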

How the data were processed

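Affymetrix arrays of ankle joint total RNA, labelled as biotinylated cRNA per the labels' protocols, gave 1 table of log2 expression values that the authors deposited. The submitters' processing notes name RMA, MAS5 and Affymetrix Expression Console without saying which produced the deposited log2 values. The values were used as deposited. Of 45101 probe sets, 34945 had 1 annotated gene, 932 several and 9160 none, and 64 were controls; 34741 single genes were matched to GRCm38.p6 symbols.

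Group means over all 8 arrays were fitted together in limma 3.58.1 (R 4.3.3; moderated variances with an intensity trend, 5 residual degrees of freedom) after the signal filter. P-values were adjusted over 24115 probe sets (Benjamini-Hochberg) and called under 0.05; only called genes are said to rise or fall. The fit was tested on simulated data. Alternatives were the filter, an offset, quantile normalization, the variance model, groups and arrays fitted, probe set choice, replicate number and 3 covariates.

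The members and lists were chosen with earlier results of these data known. Named were all members, the 3 genes most correlated with each, and up to 4 genes per list with the largest called difference. Other genes, such as Cxcl12, Cxcl14, Il17a, Csf3, Ackr1, S100a8, Itgb3 and Itga2b, were named after their values were seen. Sequences are RefSeq's, GRCm38.p6. Precision is limited by the number of arrays, with a median standard error of 0.15 log2 between hTNF and wild type.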

Additional observations from a re-analysis of the deposited data

How the results depend on the processing

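Of 174 values of member probe sets recomputed under the alternatives for each comparison, 164 kept their direction and side of the threshold in hTNF against wild type, 168 in Sphk1 null against hTNF and 166 in Sphk1 null against wild type. The count of members called stayed at 4 to 6 of 6 in both comparisons with wild type, and at 0 in Sphk1 null against hTNF under all alternatives. The 6 arose with the neutrophil covariate, where the fitted Ppbp value was called lower (-1.34 log2, or -0.82 without the covariate's 4 called genes) and which itself carries group differences; the 4 arose where the brightest Cxcl1 probe set lost its call. Signs turned as follows, and the cause was not tested. For hTNF minus wild type, Ppbp ran from -1.67 to 1.08 log2 as single arrays were left out and was 0.98 without the 3 arrays with mixed sex signal. For Sphk1 null minus wild type, Ppbp ran from -1.27 to 1.48 as single arrays were left out, and was -0.35 with the Y-linked covariate and -1.31 with the neutrophil covariate (-0.67 without its 4 called genes). For Sphk1 null minus hTNF, leaving out single arrays gave -0.07 to 0.70 for Ppbp, -0.08 to 0.14 for Pf4 and -0.05 to 0.28 for the 1441855_x_at probe set of Cxcl1, and leaving out the 3 arrays gave -0.17 for Pf4 and -0.02 for Cxcl3. It is not known whether replicate numbers pair the arrays. Same-numbered arrays correlated at -0.167 to 0.273 in their deviations from group means, and differently numbered arrays at -0.485 to 0.37. Not every array correlated best with its own number. With 2 wild-type arrays the deviations of one mirror those of the other, so these correlations cannot decide the question. With the replicate number as a block, 6515 instead of 7965 probe sets were called in hTNF against wild type, 4 of 6 members were called, the brightest Cxcl1 probe set was at 0.62 log2 (limma adjusted p = 0.0649), and Ppbp in Sphk1 null minus wild type was at -0.25. The use of 1419209_at for Cxcl1, the omission of the 3 arrays and that of the 4 covariate genes were chosen after seeing the data. With 2 wild-type arrays, 1 array moves the neutrophil and Ppbp values most. Wild-type values of Cxcl2, Cxcl3, Cxcl5 and the 1419209_at probe set of Cxcl1 are dim, which limits how exactly their folds are known.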
